A study of Equus caballus with 6 samples.

Results

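Mature-restricted sequences were small RNAs of 25 to 32 nt that were read in every library of mature horse testis and almost never in immature testis. They were chosen by their own counts. A row of the deposited table of putative piRNAs was taken when it had at least 3 reads in each of the 3 mature libraries and at most 1 read in the 3 immature libraries together. The rule found 52886 sequences, which was 1.07% of the 4936717 rows of the table and 53.7% of the 98467 rows that had at least 3 reads in every mature library. Because the rule used the contrast between mature and immature testis, these shares and the counts by group are a description and no test was made on them. The other 45581 rows detected in every mature library, which had 2 or more immature reads, are called here the other detected sequences and served for comparison inside the mature libraries.

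The series holds small RNA libraries from the testes of Mongolian horses, 3 labelled immature and 3 labelled mature, with no treatment, genotype or age given in the labels. Whole testis was used, so fewer cells of a type and less RNA per cell cannot be told apart. The labels do not say whether the 3 libraries of a group came from separate animals, and the spread between them may then be technical. The mature libraries held 4032042 to 4550970 reads and the immature libraries 1382083 to 2347351, all within the table of called piRNAs.

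piRNAs are small RNAs of animal germ cells that are bound by PIWI proteins and guide them to complementary RNA, above all transcripts of transposons. In the mammalian testis they are known in waves: shorter piRNAs in fetal and early germ cells, and a very abundant class of longer ones, made from long precursor transcripts, in meiotic and later cells. A primary piRNA usually begins with uridine. In the ping-pong cycle a PIWI protein cuts a target opposite the bond between bases 10 and 11 of its guide, so the new piRNA overlaps the guide by 10 nt at the 5′ ends and carries adenine at position 10. In the sequences below T stands for uridine, as in the table, and positions are counted from 1 at the 5′ end.

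Of the 10 most abundant sequences 9 are shown, because they differ in first base, in 5′ end and in their relation to other rows, which the results below turn on. Capitals mark positions 1 and 10.
uniq_4606495: TatctgttgCagtcagaggaactgagcgcc
uniq_3838804: TatctgttgCagtcagaggaactgagcgc
uniq_4091021: GatttattgAgtgtctactgtgtgcttc
uniq_4079563: GaatagagaCtgttgaaggatgaactcaac
uniq_3775169: TggataagtCagatgtggcttttaggaac
uniq_2037583: CaggtcctaAcatggtagagaactctgtt
uniq_4630187: GatgactaaAactgactggagggctggtt
uniq_4596709: TctgattgcAgagcaatttacactgatg
uniq_4002205: TctgattgcAgagcaatttacactgat

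Most of the sequences were rare. The summed count over the mature libraries ran from 9 to 1570 reads with a median of 21. In CPM, the reads of a row per 1000000 reads of the table in that library, the mean mature level ran from 0.709 to 119, with quartiles at 1.17, 1.62 and 2.45, a 90th percentile of 3.81 and a 99th percentile of 8.74. The median of the other detected sequences was 4.11 CPM and their highest level 7824 CPM. Only 351 of the mature-restricted sequences reached 10 CPM and 33 reached 20 CPM. Together they made up 11.1%, 11.4% and 11.3% of the reads of the mature libraries (11.2% ± 0.171, SD, n = 3) and, by the rule, 0.148%, 0.614% and 0.435% of the immature reads. The other detected sequences held 52.9%, 52.0% and 54.2% of mature reads.

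How firmly a sequence was absent from immature testis depended on its level. There was no immature read for 30054 sequences (56.8%), and 1 read for 22832, which lay in immature replicate 1 for 2052, in replicate 2 for 14414 and in replicate 3 for 6366. A count of 0 over the 5191773 immature reads allows up to 3 reads, or 0.578 CPM, and this floor covers counting error only, since the reads carry no molecular identifiers and may be PCR copies. The mature level was at least 10 times that floor (5.78 CPM) for 1802 sequences, of which 606 had no immature read, and lower for 96.6%. At its mature share the median sequence would have had 8.57 immature reads and the rarest 3.67, and 32756 (61.9%) would have had under 10. For most of these sequences, therefore, a level in immature testis several times lower than in mature testis could not be told apart from absence.

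Nothing in the counts marked a gap at the thresholds. Just outside the rule lay 13909 rows with 2 immature reads and 8281 with 3, and 34985 rows with a lowest mature count of 2. Just inside, 17121 sequences had exactly 3 reads in at least 1 mature library. The median summed mature count was 19 reads for sequences with no immature read, 24 for those with 1 and 31 for rows with 2. The most abundant row just outside, uniq_4896682, had 521, 407 and 548 mature reads and 1, 1 and 0 immature reads, about as much as the leading member. Next came uniq_5015365 with 260, 395 and 307 mature reads and uniq_4057931 with 155, 153 and 232, each with 2 immature reads.

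The rule was then applied to 5 libraries and the chosen rows were read in the sixth, which the choice had not used. Without mature replicate 1, 2 or 3 it chose 72575, 72979 and 66811 rows, and 72.9%, 72.5% and 79.2% of them had at least 3 reads in the library left out. Their summed level there was 116214, 119895 and 116290 CPM, which was 85.0%, 88.9% and 90.2% of that in the mature libraries used for the choice. For all rows detected in the choosing mature libraries this was 95.7%, 94.6% and 99.5%.

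Left-out immature libraries gave less even values. Without immature replicate 1, 55621 rows were chosen, 91.4% had no read in it and their summed level was 4174 CPM, 29.5-fold below the choosing mature libraries. Without immature replicate 2, 76193 rows were chosen, 50.5% had no read in it and the level was 31345 CPM, 7.12-fold lower. Without immature replicate 3, 61861 rows were chosen, 75.2% had no read in it and the level was 14063 CPM, 10.3-fold lower. So the rows were lower in each immature library that the choice had not seen, at 3.39%, 14.04% and 9.67% of the mature level, where all detected rows stood at 32.4%, 46.6% and 33.8%. The highest count that such a row reached in the library left out was 54, 96 and 16 reads.

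Individual sequences varied between mature libraries. The median coefficient of variation over the 3 libraries was 31.7%, against 29.6% for the other detected sequences, and 32.2% against 28.3% among rows with at least 30 summed reads, which numbered 14679 among the mature-restricted ones. The highest CPM was at least 3 times the lowest for 6799 sequences (12.9%) and at least 10 times for 37. Of these 37, the lowest library was replicate 1 for 14, replicate 2 for 11 and replicate 3 for 12. The highest was replicate 3 for 17, replicate 1 for 14 and replicate 2 for 6.

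The most uneven of the abundant sequences came from one 5′ end and had a near-identical form with the opposite pattern. uniq_4606495 had 554, 7 and 1009 reads in mature replicates 1, 2 and 3 and none in immature testis (119 ± 111 CPM, SD, n = 3, at least 206-fold above the floor over the immature group). Its shorter form uniq_3838804, which lacks the last base, had 462, 12 and 676 reads (87.7 ± 75.7 CPM, at least 152-fold above the floor). Both were low in replicate 2 alone. Each has a row of the same length that differs at 1 base, A28G, where the base of the other row is written first and that of the mature-restricted sequence last. These rows are shown with the differing base in capitals, to let the forms be compared.
uniq_4606495: tatctgttgcagtcagaggaactgagcGcc
uniq_3126418: tatctgttgcagtcagaggaactgagcAcc
uniq_3838804: tatctgttgcagtcagaggaactgagcGc
uniq_3175278: tatctgttgcagtcagaggaactgagcAc

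The A forms were high where the G forms were low. uniq_3126418 had 1235, 1575 and 1 reads in the mature libraries and 21, 125 and 64 in the immature ones. uniq_3175278 had 984, 1174 and 1 mature and 21, 94 and 54 immature reads. Replicate 1 held both forms, replicate 2 almost only the A form and replicate 3 almost only the G form, and the 3 immature libraries held the A form with no read of either G form. The shared part up to base 27, the row uniq_2568755 (tatctgttgcagtcagaggaactgagc), was read in all 6 libraries with 2543, 1306 and 1648 mature and 29, 231 and 122 immature reads. The 5′ end of this group was therefore not restricted to mature testis, although both its leading mature-restricted forms were. This pattern was singled out after its values were seen. Among all 37 sequences with a 10-fold range, the most abundant 1-base form was lowest where the sequence was highest for 6, including these.

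Other abundant sequences were steadier. uniq_3775169 had 133, 240 and 137 reads (40.6 ± 16.4 CPM) and uniq_2037583, which begins with C, 190, 91 and 211 (38.3 ± 13.6 CPM). uniq_4596709 had 126, 178 and 144 reads (35.4 ± 7.59 CPM) and uniq_4002205, the same sequence without its last base, 117, 143 and 175 (34.1 ± 5.24 CPM). Of these, uniq_2037583 had 1 immature read and the rest had none. The mature levels of those with none were at least 70.2-fold (uniq_3775169), 61.3-fold (uniq_4596709) and 58.9-fold (uniq_4002205) above the floor.

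A further 3 of the abundant sequences begin with G and match, apart from base 1, a row with at least 30 times their reads. They are shown with those rows, base 1 in capitals.
uniq_4091021: Gatttattgagtgtctactgtgtgcttc
uniq_2089930: Catttattgagtgtctactgtgtgcttc
uniq_4079563: Gaatagagactgttgaaggatgaactcaac
uniq_5153807: Taatagagactgttgaaggatgaactcaac
uniq_4630187: Gatgactaaaactgactggagggctggtt
uniq_1435444: Tatgactaaaactgactggagggctggtt

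uniq_4091021 (C1G) had 349, 326 and 240 mature reads and 1 immature read, while uniq_2089930 had 19953, 18132 and 18398 mature and 133, 1270 and 417 immature reads. At the ratio of that row, 29.5 immature reads of the G form would have been counted. uniq_4079563 (T1G) had 325, 165 and 426 mature reads and no immature read, against 9363, 5612 and 12788 mature and 73, 1 and 247 immature reads of uniq_5153807, whose ratio would give 10.6. uniq_4630187 (T1G) had 143, 161 and 147 mature reads and 1 immature read, against 5683, 6138 and 8603 mature and 53, 285 and 162 immature reads of uniq_1435444, whose ratio would give 11.04. Since the rule kept only forms with at most 1 immature read, these 3 cases say nothing about G forms at large.

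First-base G forms were then counted for every abundant row, whatever their own immature count. Of the 851 rows with at least 1000 mature reads, 781 begin with T and have no G form with more than 10% of their mature reads. The reads of these G forms were 0.843%, 0.929% and 0.924% of the reads of the T forms in the mature libraries (5458 of 647726 in replicate 1, 5630 of 606147 in replicate 2 and 6727 of 727681 in replicate 3). In the immature libraries they were 0.105%, 0.00551% and 0.00597% (41 of 38967, 5 of 90773 and 2 of 33485). The 2 groups of libraries did not overlap, and 278 of the 300 G forms found were mature-restricted. T-to-C forms, counted likewise, were 0.326%, 0.282% and 0.275% in mature and 0.265%, 0.107% and 0.122% in immature libraries, and T-to-A forms were 0.203%, 0.223% and 0.208% in mature and 0.431%, 0.181% and 0.131% in immature libraries, so the latter overlapped. Forms with another base at position 14 were 0.151%, 0.183% and 0.159% in mature and 0.0775%, 0.0712% and 0.0695% in immature libraries. Neither these nor the T-to-C forms overlapped between the groups, so G forms were not alone in this. Forms with another last base, over the 198 rows where none had more than 10% of the mature reads, were 4.92%, 6.63% and 5.40% in mature and 1.64%, 4.45% and 5.22% in immature libraries. They overlapped, as T-to-A forms did. Mature-restricted were 108 of 271 T-to-C forms, 91 of 262 T-to-A forms, 38 of 869 forms at position 14 and 77 of 300 forms at the last base. Over all rows of the table the share was 1.07%. The rule also asks for at least 3 reads in each mature library, so rare forms count against these shares. The 869 forms at position 14 held 1171, 1249 and 1297 mature reads, and the 300 at the last base 12209, 12904 and 13260. The kinds of form were not compared at equal abundance. The part of a library-wide difference in first-base G reads in the choice of these sequences was not tested.

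Near copies of abundant rows were a minority of the set. A row of the same length with 1 other base and at least 10 times the mature reads existed for 5964 sequences (11.3%, against 5.03% of the other detected sequences). A longer or shorter row with the same 5′ end, identical over the shared length and with at least 10 times the reads, existed for 5768 (10.9% against 8.69%). Either held for 10660 (20.2% against 12.7%), and among rows with 9 to 30 summed mature reads for 21.5% against 16.5%. The other 42226 sequences (79.8%) had neither relative. Rows that contain a sequence but begin at another base were not looked for. Without the 10-fold limit, 95.3% of the mature-restricted sequences had a row with 1 other base. Relatives of 10 times the reads are easier to have for rarer rows, so the comparison at 9 to 30 reads is the closer one.

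The base that differed lay at the ends. It was the last base for 3132 of the 5964 (52.5%), the first for 1026 (17.2%) and an inner one for 30.3%. At the first base 722 of the 1026 changes (70.4%) were from T to G, and these made up 51.3% of the 1408 mature-restricted sequences that begin with G. Only 9 of the other detected sequences, 1.26% of those with G at position 1, had such a counterpart. Among inner changes A to G (35.5%) and T to C (28.1%) were the most frequent. The abundant counterparts had a median ratio of immature to mature CPM of 0.0772, and the other detected sequences 0.168. By definition the other detected sequences have a lowest immature count, so the rarer of them cannot have a low ratio. The counterparts were chosen as abundant, and the ratios were not compared at equal abundance. No difference between the sets is therefore drawn from these medians. At the ratio of its counterpart the median sequence would have had 0.636 immature reads, and 114 would have had at least 3. The counterpart's ratio would thus give under 3 immature reads for 98.1% of these near copies.

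Mature-restricted sequences were mostly 29 to 31 nt long. The most frequent lengths were 29 nt (23.9% of the sequences), 30 nt (23.6%) and 31 nt (20.6%), followed by 27 nt (10.2%), 28 nt (8.30%), 26 nt (7.80%), 32 nt (3.78%) and 25 nt (1.88%). Lengths of 29 to 32 nt made up 71.8% of the mature-restricted sequences, 64.9% of the other detected sequences and 40.3% of all rows of the table. The mean length was 29.2 nt, against 28.9 nt for the other detected sequences and 27.2 nt for 7050 sequences chosen by the mirrored rule in immature testis. Among rows detected in every mature library, the share that was mature-restricted was 49.8% at 25 nt, 47.7% at 26 nt, 46.3% at 27 nt, 51.0% at 28 nt, 53.9% at 29 nt, 55.8% at 30 nt, 58.7% at 31 nt and 61.6% at 32 nt. The share thus fell from 25 to 27 nt and rose with each nt from there to 32. The same held at 9 to 30 summed mature reads, where it was 67.3%, 65.9%, 63.0%, 70.0%, 76.8%, 79.3%, 80.8% and 81.6%.

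Weighting by reads turned this difference around. Sequences of 29 to 32 nt held 75.4%, 75.8% and 74.1% of the mature-restricted reads in mature replicates 1, 2 and 3 (75.1% ± 0.901, SD, n = 3). They held 79.8%, 78.8% and 77.9% of the reads of the other detected sequences (78.8% ± 0.975). The difference was −3.73 percentage points, with the mature-restricted reads lower in 3 of 3 libraries (exact two-sided sign-flip permutation p = 0.25, adjusted p = 0.333). With rows of 9 to 30 summed mature reads in both sets it was 15.2 points in the other direction, 70.2% against 55.0%, higher in 3 of 3 libraries. The sign of the length difference thus depended on how reads were weighted and on the abundance of the rows compared.

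This sign-flip test, used for 8 differences between the mature-restricted and the other detected reads, cannot give a p below 0.25 with 3 libraries, and no p adjusted over the 8 was below 0.333. The libraries hold the same sets of sequences, so the spread between them covers only their abundance. Shares of sequences counted once have no replicate error.

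Most of the sequences began with T. Of the 52886, 48097 (90.9%) had T at position 1, 2208 (4.18%) C, 1408 (2.66%) G and 1173 (2.22%) A, and the other detected sequences had 93.2% T, 3.33% C, 1.56% G and 1.91% A. Weighted by reads, T at position 1 made up 90.9%, 91.2% and 91.0% of the mature-restricted reads (91.0% ± 0.192) and 90.8%, 92.6% and 93.0% of the others (92.2% ± 1.15). The difference was 0.0282, −1.34 and −2.03 points in replicates 1, 2 and 3. Its mean was −1.12 ± 1.05 points, with the mature-restricted reads lower in 2 of 3 libraries (exact sign-flip permutation p = 0.5, adjusted p = 0.5). Sequences with G at position 1 were the most often mature-restricted among rows detected in every mature library, 66.4% of them, against 59.2% with C, 57.4% with A and 53.1% with T. At 9 to 30 summed mature reads these shares were 79.6%, 75.9%, 72.0% and 74.4%, so the order of A and T turned and the lead of G narrowed.

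At the inner positions the base composition differed little. At position 2, 39.5% of the sequences had G. Over positions 2 to 25, no base differed by more than 1.83 percentage points from the other detected sequences, the largest being T at position 8 with 28.2% against 30.1%. The last base differed more: it was T for 33.3%, against 38.7% of the other detected sequences, and A for 22.4%, against 18.2%. The GC content had a median of 46.7% over the sequences, and its mean over reads was 46.2% ± 0.0403, against 45.3% ± 0.0532 for the others (a difference of 0.971 points, higher in 3 of 3 libraries, exact sign-flip permutation p = 0.25, adjusted p = 0.333). At 9 to 30 summed reads that difference was 0.0594 points.

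Adenine at position 10, the mark of ping-pong products, was carried by 28.9% of the sequences and 28.6% of the other detected ones. By reads the shares were 29.3%, 29.7% and 28.99% (29.3% ± 0.358) against 30.5%, 32.4% and 31.1% (31.3% ± 0.965), lower in 3 of 3 libraries with a mean difference of −1.99 points (exact sign-flip permutation p = 0.25, adjusted p = 0.333). T at position 1 and A at position 10 occurred together in 13279 sequences (25.1%), T at position 1 alone in 34818 (65.8%), A at position 10 alone in 2010 (3.80%) and neither in 2779 (5.25%). These 4 classes had mean lengths of 29.2, 29.1, 29.1 and 29.2 nt, which were close to each other. Among reads without T at position 1, A at position 10 made up 44.1%, 43.4% and 42.2% (43.2% ± 0.949) against 42.4%, 59.0% and 52.9% in the other detected reads (51.4% ± 8.41). That difference of −8.16 points was within its spread (exact sign-flip permutation p = 0.5, adjusted p = 0.5).

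Pairing over 10 nt at the 5′ ends was measured as in a ping-pong analysis without positions. Bases 1 to 10 of each read were turned into their reverse complement and looked up among the 5′ ends of the other rows present in that library. The mean share of matches for windows shifted by 1 to 5 nt was subtracted, which leaves the 10 nt excess. Of the mature-restricted reads 51.0%, 50.9% and 50.6% had such a match (50.8% ± 0.226), against 39.0%, 38.2% and 38.8% in shifted windows (38.7% ± 0.432). The excess was 11.9, 12.7 and 11.7 points (12.1 ± 0.529), and in the other detected reads 15.6, 18.7 and 16.4 points (16.9 ± 1.64). It was lower in the mature-restricted reads in 3 of 3 libraries, with a mean difference of −4.76 points (exact sign-flip permutation p = 0.25, adjusted p = 0.333). At 9 to 30 summed reads the difference was −0.089 points.

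Base composition entered this measure, since a partner of a read with A at position 10 begins with T, as most rows do. The excess was 47.0 points for sequences with A at position 10 and −2.35 for the rest. When only windows that end in A were compared, at the 5′ end and in the shifted windows alike, 86.8% ± 0.872 of the mature-restricted reads matched, against 80.4% ± 0.616 in shifted windows. The excess was then 6.72, 6.35 and 6.22 points (6.43 ± 0.260), and 9.62, 13.2 and 8.43 points in the other detected reads (10.4 ± 2.49). A 10 nt excess was thus present in each mature library after this restriction, and it was smaller for the mature-restricted reads in 3 of 3 (exact sign-flip permutation p = 0.25, not among the 8 adjusted together). This comparison was added after the data were seen. It fixed only the last base of the windows. No value at 9 to 30 summed reads is given for it, where the difference over all windows was −0.089 points.

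Most mature-restricted sequences shared their 5′ end with other rows. Rows that share their first 20 nt are called a 5′ end group here. The 52886 sequences fell into 28578 such groups, and 52399 of them shared their 5′ end with at least 1 other row of the table, while 487 (0.921%) stood alone. In 17475 groups there was 1 mature-restricted sequence and in 11103 there were 2 or more, which together held 35411 (67.0%). Groups with 5 or more numbered 1813 and those with 10 or more 116, and the largest had 18. By reads, 99.2% ± 0.0176 lay in a 5′ end group of more than 1 row, against 99.9% ± 0.00720 for the other detected reads (a difference of −0.632 points, lower in 3 of 3 libraries, exact sign-flip permutation p = 0.25, adjusted p = 0.333).

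Sequences of a group often differed in length. In 9878 groups the mature-restricted sequences had 2 or more lengths, in 1887 they had 4 or more, and up to all 8 lengths occurred. A mature-restricted sequence was the most read row of its 5′ end for 18056 (34.1%). The others had a median of 18.03% of the leading row's mature reads, and the leading row was one of the other detected sequences for 26424 and itself mature-restricted for 7599. Of those that did not lead, 41.1% were shorter than the leading row, 27.3% as long and 31.7% longer. Another mature-restricted 5′ end lay 1, 2, 3, 4 or 5 nt downstream for 10.9%, 9.49%, 13.8%, 9.21% and 11.01% of the sequences, a measure that was not computed for other rows.

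Many of these 5′ ends were not restricted to mature testis as a whole. A 5′ end counts the reads of all its rows, so it can meet the limit at most as often as the sequence does. No like share is given for 5′ ends of other rows. All rows of the 28578 groups together had 8446158 mature reads, of which the mature-restricted sequences held 16.9%, and 389112 immature reads. In 9157 groups (32.04%) all rows together had at most 1 immature read, and in 4673 there was none. In 7255 groups (25.4%) there were 10 or more. The sequences whose whole 5′ end had at most 1 immature read numbered 10667 (20.2%), and the other 42219 (79.8%) shared their 5′ end with rows that were read in immature testis.

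These subsets differed in composition. Lengths of 29 to 32 nt made up 80.1% of the 10667 and 69.7% of the 42219, and T at position 1 78.8% and 94.0%. A 5′ end includes base 1, so a first-base form of an abundant row counts as a 5′ end of its own. The difference in T at position 1 is therefore not independent of the definition. A at position 10 was carried by 31.2% and 28.3%, and the median summed mature count was 18 and 21 reads. When sequences with an abundant near copy were also left out, 8980 remained (17.0% of the set), with 78.9% of 29 to 32 nt, 86.0% with T at position 1 and a median of 18 summed mature reads. These 8980 had at most 1 immature read over all rows with the same first 20 nt, and no near copy with at least 10 times their reads. Less abundant forms that differ within the first 20 nt, and forms with a shifted 5′ end, did not count against them. The most abundant of the 8980 was uniq_3775169 at 40.6 CPM. Its 5′ end had 4 rows, all mature-restricted, with 737 mature reads and no immature read. uniq_4596709 and uniq_4002205 likewise belonged to a 5′ end with 5 rows, all mature-restricted, with 1043 mature and no immature reads. uniq_4002205 did, however, have a row that differs at base 1 (G1T), uniq_4901519, with 581, 634 and 822 mature and 7, 43 and 24 immature reads, which lies outside a group defined by the first 20 nt.

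The groups with the most mature-restricted sequences were crowns of rare variants around an abundant row. Their leading rows, which were not mature-restricted, are shown together with the most abundant mature-restricted sequence of each group, capitals marking positions 1 and 10.
uniq_2958601: TgacatccaAtatgctgtgaacatgactg
uniq_2694152: TgacatccaAtatgctgtgaacatgacgg
uniq_2483519: TgcaatcagCtggggacggaactccagga
uniq_5192167: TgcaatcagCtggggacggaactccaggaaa
uniq_5184017: TggaagtctGagagttctgttctggccagg
uniq_3139578: TggaagtctGagagttctgttctggccatg

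The group led by uniq_2958601, with 2108, 1204 and 1931 mature and 4, 75 and 34 immature reads, had 98 rows, of which 18 were mature-restricted with 10 to 94 summed mature reads (median 19). These 18 held 2.44%, 2.88% and 2.46% of the group's reads in the mature libraries. The strongest, uniq_2694152 (T28G), had 33, 34 and 27 reads. The group led by uniq_2483519 had 86 rows and 18 mature-restricted ones with 11 to 47 reads, and its leading row had 3710, 3829 and 4245 mature and 57, 1 and 216 immature reads. The group led by uniq_5184017 had 156 rows and 17 mature-restricted ones with 10 to 55 reads, beside 7173, 6678 and 7202 mature and 66, 398 and 197 immature reads of the leading row. Counting both kinds of relation, 18 of 18, 17 of 18 and 17 of 17 of these sequences were near copies of a row with at least 10 times their reads. In each group they were a small share of the 5′ end, and the leading row was read in immature testis as well.

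The 5′ ends with the most immature reads in their other rows also held mature-restricted variants. They are shown because they are the clearest cases in which the exact sequence, and not the 5′ end, met the rule. The differing base is in capitals.
uniq_2336977: tgaagtagaacttctgctctTccgtgtcc
uniq_2338709: tgaagtagaacttctgctctGccgtgtcc
uniq_4955158: tggataaataaattgtggtatatttctgGa
uniq_274482: tggataaataaattgtggtatatttctgCa
uniq_3058164: catttattgagtgtctactgtgtgctcA
uniq_3058192: catttattgagtgtctactgtgtgctcC

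The first 5′ end was higher in immature than in mature testis. Its 698 rows had 14142 immature and 2237 mature reads, and its leading row uniq_2330440 had 86, 96 and 132 mature and 638, 750 and 492 immature reads. Only 3 of its rows were mature-restricted, uniq_2336977 with 8, 4 and 10 mature reads, uniq_2332549 with 4, 3 and 9 and uniq_2336976 with 3, 4 and 5. All 3 carried the same change G21T. uniq_2338709, the counterpart of the first, had 38, 31 and 56 mature and 90, 94 and 65 immature reads. At the ratios of their counterparts, uniq_2336977, uniq_2332549 and uniq_2336976 would have had 43.8, 43.3 and 18.3 immature reads, where 1, 0 and 1 were counted. Over all 698 rows, T at base 21 was not restricted to mature testis: its 67 rows had 48, 52 and 87 mature and 27, 58 and 69 immature reads. They made up 8.22%, 6.57% and 10.1% of the mature and 0.700%, 0.927% and 1.71% of the immature reads of this 5′ end, while G at base 21 made up nearly all the rest. The 3 sequences thus belonged to a T form that was a larger part of this 5′ end in each mature library and yet was read in every immature library in its other rows. This split was made after the values were seen.

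The other 5′ ends were high in mature testis. That of uniq_274482, with 31868, 34424 and 32925 mature and 275, 4240 and 1125 immature reads in the leading row, held 15 mature-restricted rows among 113. The strongest, uniq_4955158 (C29G), had 21, 26 and 21 mature reads, and its counterpart's ratio would give 3.87 immature reads. That of uniq_2089930 held 8 among 99 rows, with 3594 immature reads in all. The strongest, uniq_3058164 (C28A), had 17, 23 and 19 mature reads and no immature read. Its counterpart uniq_3058192 had 163, 184 and 152 mature and 2, 15 and 4 immature reads, whose ratio would give 2.48. All 15 and all 8 were near copies of a row with at least 10 times their reads.

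An opposite-strand partner, a row complementary over at least 20 consecutive nt, existed for 18704 of the mature-restricted sequences (35.4%), against 37.2% of the other detected ones. By reads the shares were 35.4%, 36.1% and 35.9% (35.8% ± 0.365) against 36.9%, 39.8% and 38.3% (38.3% ± 1.44), lower in 3 of 3 libraries with a mean difference of −2.54 points (exact sign-flip permutation p = 0.25, adjusted p = 0.333). With 18 complementary nt the shares were 42.4% and 48.8%, and with 24 nt they were 24.7% and 24.8%, so the difference shrank as the match lengthened. Sequences without T at position 1 had a partner more often, 45.4% against 34.4% of those with T. In the other detected sequences these shares were 39.6% and 37.1%. The share with a partner was 30.3% at 25 nt and 43.1% at 32 nt, and longer sequences have more places for a match.

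Partners were many and mostly rare. The 18704 sequences made 135552 pairs with 46335 rows, with a median of 2 partners, exactly 1 for 6281, 10 or more for 3138, 50 or more for 413 and 537 at most. Of the partner rows 65.6% had been read once in all libraries together, 58.6% were 29 to 32 nt long and 69.7% began with T. Of the partnered sequences 6247 (33.4%) had a partner with an immature read, while for 12457 no partner had one. The mature libraries were deeper, and no like share is given for partners of the other detected sequences. Summed over the partner rows, the level in immature testis was 0.275 times that in mature testis. The definition leaves out every overlap of the 5′ ends under 20 nt, the 10 nt of a ping-pong pair among them. Counted from 5′ end to 5′ end, each span from 20 to 32 nt was found for 3.70% (21 nt) to 5.66% (25 nt) of the sequences.

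Both strands were mature-restricted in 1411 pairs, which held 1040 sequences (5.56% of those with a partner). The 3 pairs with the most abundant weaker partner are shown with the complementary run in capitals.
uniq_4002205: tCTGATTGCAGAGCAATTTACActgat
uniq_5235316: TGTAAATTGCTCTGCAATCAGctggggact
uniq_4357409: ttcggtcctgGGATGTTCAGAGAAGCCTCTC
uniq_4485215: tttgaagtGAGAGGCTTCTCTGAACATCC
uniq_2068500: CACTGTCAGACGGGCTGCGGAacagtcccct
uniq_2062249: TCCGCAGCCCGTCTGACAGTGaaggaattg

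Each run was 21 nt long. From 5′ end to 5′ end the pairs spanned 22, 39 and 21 nt, where the definition of a partner allows no span under 20 nt. In the second pair the run lay at the 3′ ends, at bases 11 to 31 of uniq_4357409 and 9 to 29 of uniq_4485215. The 5′ ends of that pair lay outside the run. uniq_4002205 had 117, 143 and 175 mature reads and its partner uniq_5235316 had 23, 25 and 51 with 1 immature read. uniq_4357409 had 38, 29 and 40 reads and uniq_4485215 had 38, 9 and 38 with 1 immature read. uniq_2068500 had 34, 20 and 27 reads and uniq_2062249 had 24, 27 and 21, with no immature read for either. In the first pair the levels of the strands did not overlap, while in the second and the third they did. uniq_4002205 lies on the 5′ end of 5 rows described above and uniq_5235316 on one of 38 rows, of which 7 were mature-restricted. Both had many other partners, 104 for uniq_4002205 and 88 for uniq_5235316.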

How the data were processed

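Small RNA was sequenced from 3 immature and 3 mature testis libraries. The table deposited by the authors gives raw read counts, 1 row per distinct sequence and 1 column per library, per the file headers. The submitters' processing notes name Bowtie, without its version. How rows were called piRNAs, and on which genome build, is not given in the sources used here. No position was used and no match to annotated RNAs was made. Per the labels' protocols, adapters were ligated to both ends of RNA and the products were size-selected on a gel, so the lengths present are partly set by that selection and by the calling.

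Counts were used as deposited. CPM are scaled to the table's total in a library, and SD is over the 3 mature libraries. Members and lists were chosen with earlier results of these data known. The 8 differences between mature-restricted and other detected reads were taken inside each mature library and tested by an exact two-sided sign-flip permutation test over the 3 libraries, with Benjamini-Hochberg adjustment over the 8. Sequences named are the 10 most abundant members, the 3 5′ end groups with the most members, the 3 with the most immature reads in other rows, the 3 pairs of members with the most abundant weaker partner, and the 3 most abundant rows with 2 immature reads. From each group the most abundant member is given, or all 3 where a group held 3, and 1 of the 10 most abundant members is not reported here. The A-ended windows, the count of first-base forms, the split by base 21 and the 10-fold ranges were added after the data were seen. Alternatives varied the thresholds, weighting, depth and definitions. No pair of libraries of a group agreed within counting noise. Python 3.11.15, NumPy 2.4.6, pandas 2.3.3 and SciPy 1.17.1 were used. The searches for 10 nt matches, opposite-strand partners, shared 5′ ends, 1-base forms and forms with another 3′ end were tested on simulated sequences. The other measures were not.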

Additional observations from a re-analysis of the deposited data

How the results depend on the processing

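The number of mature-restricted sequences followed from the thresholds. It was 87871 with at least 2 reads in each mature library, 25689 with at least 5, 7486 with at least 10, and 30054 with no immature read. With the mature libraries thinned to the smallest total, 1382083 reads, it was 9111. That was 25.6% of the 35567 rows then detected in every mature library, against 53.7% at full depth. All 9111 are in the full set by construction, since thinning only lowers mature counts. Without 1 library it was 55621 to 76193. The share of 29 to 32 nt was lower by reads but 6.92 points higher with each sequence counted once, 15.2 points higher at 9 to 30 summed mature reads (15.5 with each counted once there) and 0.886 points higher with at least 10 reads in each mature library. For A at position 10 the sign turned with each sequence counted once (0.336), and at 9 to 30 reads (0.601, or 0.395 counted once). Among reads without T at position 1 it turned at 9 to 30 reads (2.94, or 2.66 counted once). The cause of these reversals was not tested.

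Without 1 mature library and with the rule applied to the rest, the differences were −5.03 to −3.99 for 29 to 32 nt, −2.01 to −0.823 for T at position 1, −2.36 to −1.84 for A at position 10 and −13.6 to −5.10 for A at position 10 without T at position 1. They were 0.978 to 1.13 for GC content, −5.52 to −4.42 for the 10 nt excess, −2.82 to −2.39 for opposite-strand partners and −0.816 to −0.714 for 5′ end groups. The last 4 and T at position 1 kept their direction under every other alternative run. No paired analysis was possible because the rule used the contrast between the groups, so no test was made between libraries of the same number. The 8 tests compare sets of rows inside each mature library. Depth limits the set: at these totals a rare sequence absent from immature testis and one several times lower there give the same counts.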
